A study of Mus musculus with 10 samples.

Results

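The 10 apolipoprotein genes Apoa1, Apoa2, Apoa4, Apoa5, Apob, Apoc1, Apoc2, Apoc3, Apoe and Apom were followed in mouse liver after napabucasin, per library and per gene. They were taken by symbol from a count table of 54532 genes, each symbol matched 1 row, and all 10 passed the filter on low counts that left 14244 genes for testing. The study compared 2 groups of 5 livers: napabucasin (BBI608), a small molecule with a quinone core that is known as a STAT3 inhibitor, given by oral gavage at 20 mg per kg body weight a day for 7 days, and vehicle, 1% sodium carboxymethyl cellulose (NaCMC) given the same way. All were whole livers of mice described only by tissue, treatment and time, with no strain, sex or age in the labels, and no liver was untouched by gavage. Polyadenylated RNA was sequenced, and the stated aim was to find genes and pathways that the drug affects in the liver microenvironment.

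Apolipoproteins are the protein coats of the particles that carry fat and cholesterol in blood. The liver builds very low density lipoprotein (VLDL) around apolipoprotein B, and it secretes apolipoprotein A-I and A-II, around which high density lipoprotein (HDL) forms. The small exchangeable proteins move between particles. Apolipoprotein C-II activates lipoprotein lipase, C-III slows clearance, A-V promotes triglyceride clearance, and E is the ligand by which remnants are taken up again. In liver nearly all of these genes are transcribed in hepatocytes, while Apoe is also expressed in macrophages.

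No apolipoprotein gene passed the test in napabucasin livers, although 9 of the 10 had fitted differences below 0, and Apoa4 and Apom had the smallest p-values of the 10. The log2 fold changes of napabucasin over vehicle ran from -1.01 for Apom to 0.06 for Apoc2, with a median of -0.33. By edgeR's quasi-likelihood test 0 of 10 had an adjusted p under 0.05, where 0% of all tested genes were called. DESeq2 also called 0 of the 10, where 1.38% of all genes it tested were called, and limma-voom with quality weights called 0 of the 10, where 1.1% were called. At an unadjusted p under 0.05, edgeR gave 2 of the 10 as lower, against a background of 5.83% of all tested genes lower, and 0 as higher, against 9.34%. The count of 2 lower genes was 4 with DESeq2, with limma-voom and without vehicle replicate 2, and 1 to 4 over all alternatives. A fitted difference below 0 was found for 49.9% of all tested genes and for 62.8% of the 2592 genes that averaged 50 CPM (read counts scaled to a fixed library size) or more. Of 25 other abundant secreted liver proteins, such as albumin and hemopexin, 23 lay below 0 with a median of -0.26. The direction of the apolipoprotein genes was thus shared by most of that list.

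**Figure D1:**
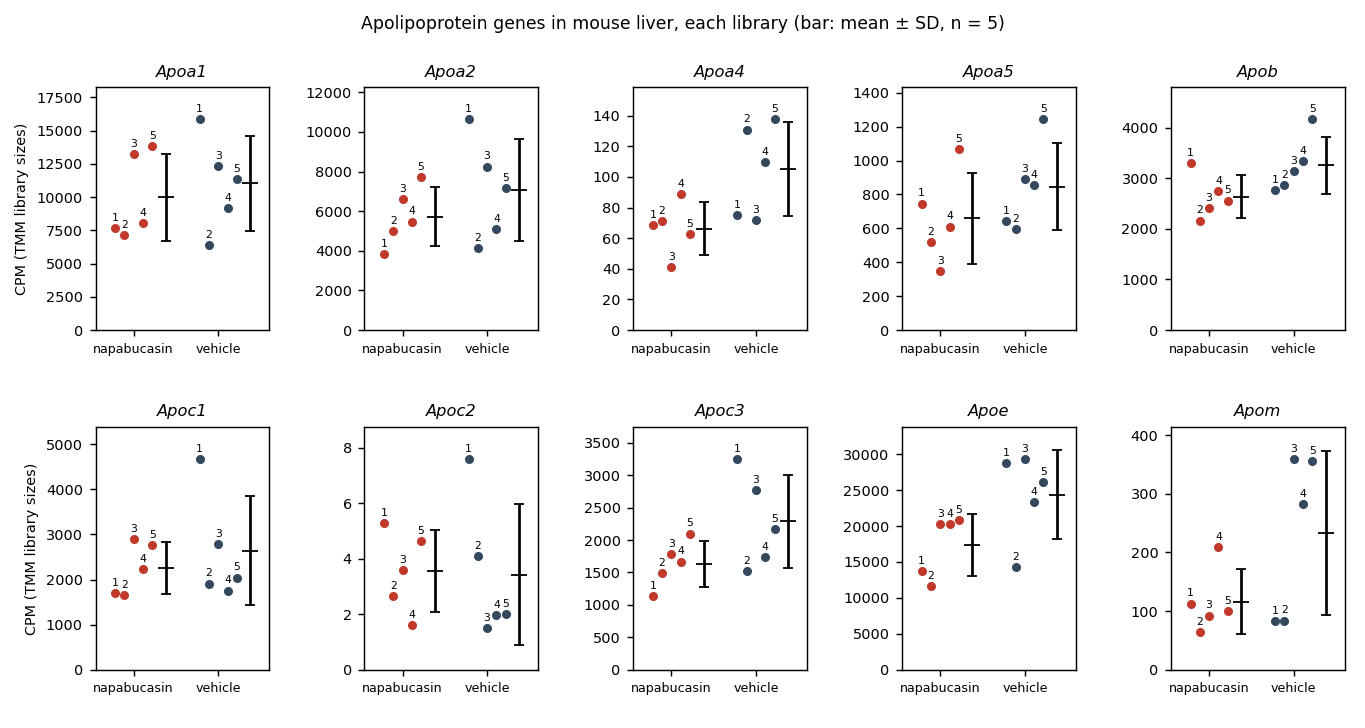
Each panel shows 1 apolipoprotein gene, with CPM on a linear axis from 0, the 5 napabucasin libraries in red left of the 5 vehicle libraries in dark blue, replicate numbers beside the points, and black bars for mean ± SD. The groups overlap in every panel, and in the Apoa4 and Apob panels 4 of the 5 napabucasin points lie below the lowest vehicle point.

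**Figure D2:**
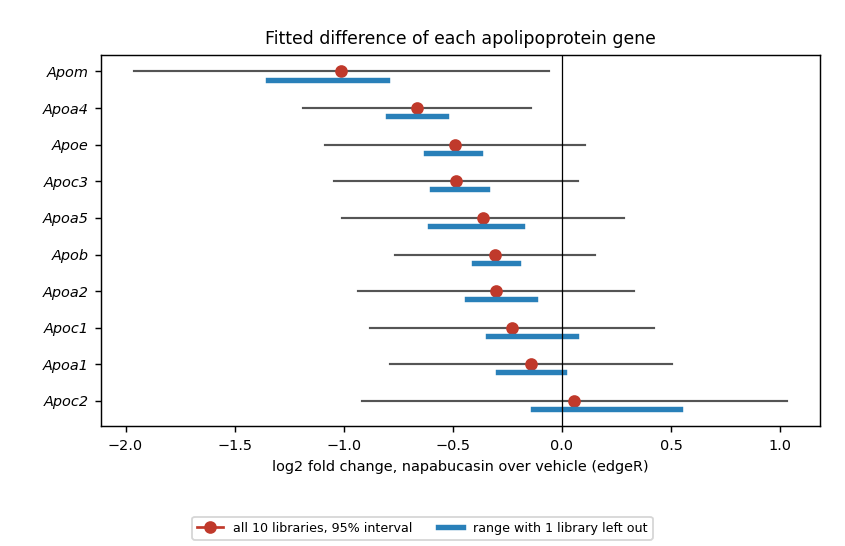
Red points give the log2 fold change of napabucasin over vehicle from edgeR for each of the 10 genes, black lines the 95% interval and blue bars the range when 1 library at a time was left out. The intervals of Apom and Apoa4 lie below 0, and the other 8 include 0.

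Library totals ran from 15364342 to 17369118 counts in napabucasin and from 14124484 to 17759967 counts in vehicle livers. Mitochondrially encoded genes took 9.03% to 19.9% of counts in napabucasin and 7.03% to 19% in vehicle livers, and genes annotated as rRNA took 0.426% to 1.09% and 0.195% to 0.912%. The 10 hepatocyte markers were all detected, 9 of them with fitted differences below 0 (median -0.37). At an unadjusted p under 0.05 in edgeR, 2 of them were lower, Cps1 (-0.59) and Ass1 (-0.69), against 5.83% of all tested genes. Their summed level was 70795 to 123994 CPM in napabucasin and 40734 to 154695 CPM in vehicle livers. Most of that sum was Alb, at 54060 to 96276 CPM in napabucasin and 28363 to 124696 CPM in vehicle livers. In whole tissue, fewer cells of a type and less RNA per cell cannot be told apart.

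Per unit of length, the apolipoprotein genes ranged from among the most abundant transcripts of the liver to rarely counted ones. In the deposited FPKM values, which divide counts by gene length, Apoa2 averaged 10526 ± 2786 FPKM in napabucasin and 13055 ± 4735 FPKM in vehicle livers (SD, n = 5 each), and ranked between position 3 and position 8 of all genes in each library. Apoe averaged 8014 ± 2035 FPKM in napabucasin and 11335 ± 2887 FPKM in vehicle livers, and Apoa1 7979 ± 2656 and 8858 ± 2833 FPKM. These 3 were close in level: Apoa2 exceeded Apoe in 9 of 10 libraries, and Apoe exceeded Apoa1 in 7 of 10. Apoc1 followed, at 2983 ± 787 FPKM in napabucasin and 3506 ± 1581 FPKM in vehicle livers, below Apoa1 in 10 of 10 libraries. Apoc3 stood below Apoc1 in 10 of 10 libraries, at 1592 ± 352 and 2242 ± 697 FPKM.

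A step of several fold separated these 5 genes from the rest. Apoc3 exceeded Apoa5 by 3.79 to 12.7 times in FPKM within a library. Apoa5 averaged 257 ± 104.5 FPKM in napabucasin and 334 ± 107 FPKM in vehicle livers, Apob 186 ± 28.8 and 233 ± 43.5 FPKM, and Apom 113 ± 54.0 and 229.8 ± 139 FPKM. Apoa5 exceeded Apob in 9 of 10 libraries. The order of Apob and Apom was not stable, with Apob above Apom in 6 of 10, while Apom exceeded Apoa4 in 10 of 10. Apoa4 averaged 36.0 ± 9.21 FPKM in napabucasin and 57.5 ± 17.1 FPKM in vehicle livers. Apoc2 came last at 4.31 ± 1.79 FPKM in napabucasin and 4.17 ± 3.05 FPKM in vehicle livers.

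Apoc2 and Apoa4, at the bottom of this order, have exons that other gene models overlap. On GRCm38, Apoc2 (chromosome 7, 19671579 to 19677941, minus strand) overlaps along nearly its whole length with the protein-coding model Gm44805 (19671584 to 19681423, same strand), which also spans Apoc4. Of the 813 exonic bases of Apoc2 in GENCODE M21, 646 are also exonic in Gm44805, and 167 belong to Apoc2 alone. The length in the deposited table equals the GENCODE M21 exonic length for all 10 genes. Apoc2 had 559 counts over the 10 libraries and Gm44805 had 13. The neighbouring Apoc4, which shares only 119 of its 2537 exonic bases with Gm44805, averaged 669 ± 147 CPM in napabucasin and 749 ± 249 CPM in vehicle livers. Where a counter leaves out reads that fit more than 1 gene, those from the bases shared by Apoc2 and Gm44805 are in neither row. How such reads were handled is not given in the sources used here. The Apoc2 counts therefore cannot be read as the level of its main transcript.

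Apoa4 shares 1266 of its 1815 exonic bases with Gm47528 and Gm10680, both annotated on the opposite strand, and Apoa5 shares 524 of 2522 with Gm47544. Gm47528 had 73 counts over all libraries, and Gm10680 and Gm47544 had 0. The described library steps name no strand marking and the strand setting is not given, so reads from these bases may not have been assigned. If every counted read came from unshared bases, mean FPKM over the 10 libraries would be 155 in place of 46.8 for Apoa4, 373 in place of 295.8 for Apoa5, and 20.7 in place of 4.24 for Apoc2. Apom averaged 171 FPKM. A read that crosses from unshared into shared bases may also have been left out, which would make the countable length shorter still. The rescaled values are therefore not upper limits, and the places of Apoa4 and Apoc2 in the order cannot be read from them. The other 7 genes share no exonic base with another row of the table. Both groups were counted with the same models.

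**Figure D3:**
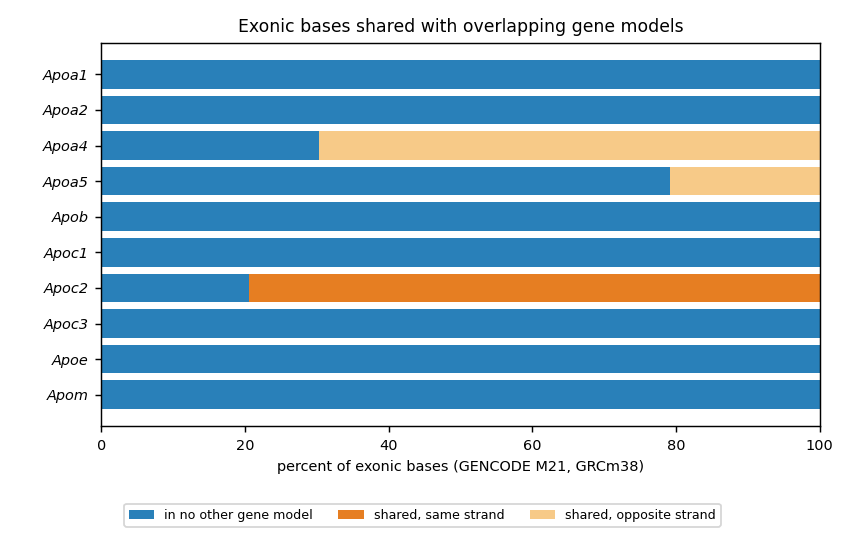
Bars give the percent of each gene's exonic bases in GENCODE M21 that lie in no other gene model (blue), in an overlapping model on the same strand (orange) or on the opposite strand (pale orange). Apoc2 shares 79.5%, Apoa4 69.8% and Apoa5 20.8%, and the other 7 genes share none.

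Apob encodes the structural protein of VLDL and chylomicrons (chromosome 12, 7977648 to 8016835, plus strand). It measured 3296, 2163, 2416, 2741 and 2559 CPM in napabucasin replicates 1 to 5, against 2767, 2866, 3143, 3347 and 4175 CPM in vehicle replicates 1 to 5. Napabucasin replicate 1 lay inside the vehicle range, and the other 4 lay below its lowest library. The log2 fold change was -0.31 (SE 0.21, 95% interval -0.77 to 0.15, edgeR adjusted p = 0.485), and -0.20 without vehicle replicate 5. Apob had the smallest spread of the 10 genes, with a coefficient of variation of 16.1% in napabucasin and 17.2% in vehicle livers.

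Apobec1, the enzyme that edits Apob mRNA in mouse liver so that a shorter protein is made, lay in the opposite direction. It measured 63.5, 61.7, 55.8, 51.1 and 43.4 CPM in napabucasin replicates 1 to 5, against 34.1, 33.2, 32.5, 41.4 and 33.6 CPM in vehicle replicates 1 to 5. The groups did not overlap, which was so for 1.21% of all tested genes in this direction. The log2 fold change was 0.66 (SE 0.16, edgeR unadjusted p = 0.000922, adjusted p = 0.185), so it did not pass over all genes. Gene counts do not show whether a transcript was edited. Mttp, the transfer protein that loads lipid onto apolipoprotein B, measured 237 ± 32.8 CPM in napabucasin and 269.6 ± 57.3 CPM in vehicle livers, and its log2 fold change was -0.19 (edgeR adjusted p = 0.638).

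Apoa4 encodes an exchangeable apolipoprotein made in gut and, at lower levels, in liver, where in mice it responds to fat load and fasting (chromosome 9, 46240696 to 46243459, plus strand). It measured 68.4, 70.9, 40.9, 88.6 and 62.5 CPM in napabucasin replicates 1 to 5, against 75.0, 131, 72.0, 109.5 and 138 CPM in vehicle replicates 1 to 5. Only napabucasin replicate 4 lay above the lowest vehicle library, and all 5 lay below the vehicle median. The log2 fold change was -0.66 (SE 0.24, 95% interval -1.19 to -0.14, edgeR unadjusted p = 0.0161, adjusted p = 0.272). Without 1 library at a time it stayed between -0.80 and -0.53, with an unadjusted p under 0.05 in all 10 of those fits. Of the 10 enterocyte markers, Alpi was at 0 and Lct, Sis, Cdx1, Cdx2 and Rbp2 held 12, 3, 1, 4 and 5 counts over all libraries, while Anpep, Fabp2, Slc5a1 and Vil1 were detected in every library. Those 4 were tested and all were fitted below 0, with Vil1, an actin bundler of microvilli, at -1.26 (edgeR unadjusted p = 0.0401, adjusted p = 0.316) on 116 counts over all libraries. Their part in the Apoa4 difference was not tested.

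Upstream sequence is shown for Apoa4 and Apob, because they alone among the 8 members with a RefSeq promoter (GRCm38.p6) hold a match to the core CAAAGNNCA bound by the liver factor HNF4. Each stretch runs up to the base before the gene's start in the deposited table, and capitals mark the core and, in Apob, a TATAAA.
Apoa4 chr9:46240594-46240695, plus strand: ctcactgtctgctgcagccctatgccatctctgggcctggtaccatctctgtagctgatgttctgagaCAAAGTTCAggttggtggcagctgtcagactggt
Apob chr12:7977427-7977647, plus strand: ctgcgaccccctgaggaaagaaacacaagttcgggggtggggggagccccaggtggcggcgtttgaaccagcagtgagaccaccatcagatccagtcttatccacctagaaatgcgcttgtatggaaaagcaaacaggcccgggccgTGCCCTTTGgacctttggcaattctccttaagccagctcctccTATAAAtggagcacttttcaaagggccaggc

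The core was searched on both strands in the 250 bases before each RefSeq start, and it is read on the minus strand in Apob. It is found in 5.49% of the 32851 promoters in the table. The stricter form CAAAGTCCA, which it contains, is in 0.384% of promoters and in none of the 8, and the D-box TTATGNAA is in none of the 8 either. TATAAA, present in 12.4% of promoters, was found for Apoa2, Apoa5 and Apob. The half-site AGGTCA, present in 14.02% of promoters, was found for Apoc2. The wider core was chosen after the stricter one had given no match, and a match is a description of the letters.

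Apom encodes the HDL protein that carries sphingosine 1-phosphate (chromosome 17, 35128997 to 35132050, minus strand), and it had the lowest fitted value of the 10. It measured 113, 63.9, 92.3, 209.7 and 99.5 CPM in napabucasin replicates 1 to 5, against 83.5, 83.8, 359.8, 283 and 355 CPM in vehicle replicates 1 to 5. Vehicle replicates 1 and 2 lay among the napabucasin libraries, and vehicle replicates 3, 4 and 5 lay above all of them. The mean was 116 ± 55.5 CPM in napabucasin and 233 ± 139.8 CPM in vehicle livers (SD, n = 5 each). On the log2 scale the fitted difference was -1.01 (SE 0.44, 95% interval -1.96 to -0.06, edgeR unadjusted p = 0.0387, adjusted p = 0.315). Within the vehicle group alone the highest library was 4.31 times the lowest, while the napabucasin mean was 0.496 times the vehicle mean. With 1 library left out the log2 fold change ran from -1.35 without napabucasin replicate 4 to -0.80 without vehicle replicate 3, and the unadjusted p was under 0.05 in 3 of those 10 fits.

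Apoe, the ligand for remnant uptake (chromosome 7, 19696109 to 19699188, minus strand), was the most counted of the 10, with 3326219 counts over the 10 libraries. It measured 13682, 11679, 20294, 20254 and 20841 CPM in napabucasin replicates 1 to 5, against 28796, 14285, 29359, 23346 and 26114 CPM in vehicle replicates 1 to 5. Napabucasin replicates 3 to 5 lay close together, between vehicle replicate 2 and the other 4 vehicle libraries, and replicates 1 and 2 lay below all vehicle libraries. The log2 fold change was -0.49 (SE 0.28, 95% interval -1.09 to 0.10, edgeR adjusted p = 0.402). The Kupffer cell and macrophage markers, cells that also express Apoe, lay the other way, with 12 of 12 fitted above 0 (median 0.66 on the log2 scale) and a summed level of 890.0 to 3213 CPM in napabucasin and 459 to 2403 CPM in vehicle livers. Their part in the Apoe counts was not tested.

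Apoc3, which slows the clearance of triglyceride-rich particles, sits between Apoa1 and Apoa4 on chromosome 9 (46232933 to 46235636, minus strand). It measured 1137, 1491, 1781, 1667 and 2097 CPM in napabucasin replicates 1 to 5, against 3253, 1521, 2769.9, 1740.1 and 2168 CPM in vehicle replicates 1 to 5. All 5 napabucasin libraries lay below the vehicle median and 2 lay below the lowest vehicle library. The log2 fold change was -0.49 (SE 0.26, 95% interval -1.05 to 0.07, edgeR adjusted p = 0.383).

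For the HDL proteins Apoa1 and Apoa2 the groups largely overlapped. Apoa1, which activates the cholesterol-esterifying enzyme Lcat (chromosome 9, 46228580 to 46230466, plus strand), measured 7136 to 13855 CPM in napabucasin and 6377 to 15869 CPM in vehicle livers. All 5 napabucasin libraries lay inside the vehicle range, and the log2 fold change was -0.14 (95% interval -0.79 to 0.50, edgeR adjusted p = 0.828). Apoa2, the second major HDL protein (chromosome 1, 171225054 to 171226379, plus strand), measured 3842 to 7705 CPM in napabucasin and 4142 to 10650.3 CPM in vehicle livers, with a log2 fold change of -0.30 (-0.94 to 0.33, adjusted p = 0.613). For Apoa2 it was -0.12 without vehicle replicate 1, -0.19 without napabucasin replicate 1 and -0.08 by limma-voom. These intervals leave room for a change of about the size fitted for Apoe or Apoc3, so the data do not show that these genes were unaltered.

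Apoc1, an exchangeable protein of VLDL and HDL (chromosome 7, 19689481 to 19692660, minus strand), measured 1657 to 2894 CPM in napabucasin and 1755 to 4676 CPM in vehicle livers. Its highest library was vehicle replicate 1, and without that library the log2 fold change was 0.066 in place of -0.23 (edgeR adjusted p = 0.907 and 0.715). Apoa5, a liver-made activator of triglyceride clearance (chromosome 9, 46268633 to 46271919, plus strand), measured 350 to 1067 CPM in napabucasin and 594 to 1246 CPM in vehicle livers. Its fitted log2 difference was -0.36 (95% interval -1.01 to 0.28, edgeR adjusted p = 0.552). Napabucasin replicate 5 lay high at 1067 CPM, and without it the log2 fold change was -0.61. It was -0.20 without napabucasin replicate 3 and -0.18 without vehicle replicate 5. Apoc2, counted at 21 to 89 reads a library, was fitted at 0.06 on the log2 scale with an interval from -0.92 to 1.03, and its sign changed in 5 of the 10 fits that left out 1 library.

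Together the 10 genes took 3.13%, 3.27%, 4.97%, 4.46% and 4.86% of counts in napabucasin replicates 1 to 5, against 5.53%, 3.91%, 5.35%, 4.72% and 5.06% in vehicle replicates 1 to 5. Napabucasin replicates 1 and 2 held the smallest shares, and the other 3 lay inside the vehicle range. Those 2 libraries also held mitochondrial shares of 19.9% and 15.3% and the highest rRNA gene shares, 1.09% in each, of which nuclear rRNA genes were 0.178% and 0.180%. Most of the rRNA gene share is therefore mitochondrial rRNA, which the mitochondrial share also counts. Vehicle replicate 2, with the lowest vehicle share, had an rRNA gene share of 0.912%, of which nuclear genes were 0.0892%. Vehicle replicate 1, with the highest share, had a mitochondrial share of 19%. With mitochondrial and rRNA genes taken out of the total, the apolipoprotein share was 4.75% ± 0.816 in napabucasin and 5.49% ± 0.951 in vehicle livers (SD, n = 5 each). The part of RNA quality in this pattern was not tested. Apoe alone made up 42.8% ± 3.74 of the apolipoprotein counts in napabucasin and 47.1% ± 3.20 in vehicle livers.

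The genes did not vary as 1 block from library to library. The abundant set of Apoa1, Apoa2, Apoc1, Apoc3 and Apoe moved together: vehicle replicate 1 was the highest vehicle library for all of them except Apoe, where it came second, and napabucasin replicates 1 and 2 were the lowest napabucasin libraries for all 5. Over the 10 libraries, which share depth and composition between genes, the 10 pairs within this set had Pearson correlations of log2 CPM from 0.67 to 0.95 and Spearman correlations from 0.68 to 0.96, given as a description since the set was seen in the same values. Taken as deviations from the group means, the same pairs ran from 0.69 to 0.99. The members of the set lie on 3 chromosomes.

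Apob, Apoa5 and Apoa4 were highest in another library than the abundant set, while Apom was highest in vehicle replicate 3, as was Apoe. Vehicle replicate 5 was the highest library of all 10 for Apob, Apoa5 and Apoa4, and stood second for Apom. Vehicle replicate 1, high for the abundant set, was the lowest vehicle library for Apob and Apom. Pairs of Apoa4 with the 5 abundant genes ran from -0.42 to 0.07 in Pearson correlation, and from -0.70 to -0.47 as deviations from the group means. Apoa5 and Apom were not cleanly apart from the abundant set. Apoe had a Pearson correlation of 0.42 with Apoa5 (Spearman 0.60) and of 0.63 with Apom (Spearman 0.53), while Apoc1 had -0.10 with Apoa5 and -0.13 with Apom. Apoa4 and Apoa5 had a Pearson correlation of 0.53 and a Spearman correlation of 0.28. Within the 43340 bases of chromosome 9 from Apoa1 to Apoa5, Apoa1 and Apoc3 belong to the abundant set.

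**Figure D4:**
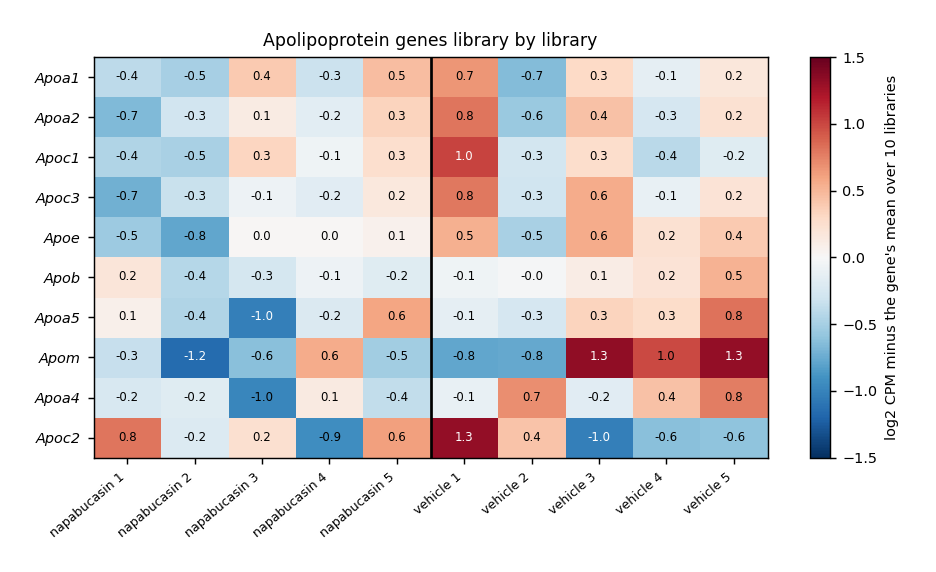
Each cell gives log2 CPM of a gene in a library minus that gene's mean over the 10 libraries, with the 5 napabucasin libraries left of the 5 vehicle libraries. Vehicle replicate 1 is red for Apoa1, Apoa2, Apoc1, Apoc3 and Apoe and blue for Apom, and vehicle replicate 5 is red for Apob, Apoa5, Apom and Apoa4.

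The genes whose log2 CPM most resembled that of a member over the 10 libraries, by Pearson correlation, were Fbxo45 (0.95), Clock (0.94) and Uba2 (0.93) for Apoa4. For Apom they were Ube3c (0.97), Gm10698 (0.96) and Fam3c (0.96). For Apoc1 the second was its chromosomal neighbour Apoc4 (0.96), after Mrpl21 (0.97) and before Ndufv3 (0.96). These are the highest values over all tested genes and are given without a test.

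Among other genes of lipoprotein metabolism, 0 passed over all genes. Of 20 assembly and secretion genes, 14 lay below 0 (median log2 fold change -0.17). At an unadjusted p under 0.05, 2 of them were lower and 2 higher, against 5.83% and 9.34% of all tested genes. The lower were Sar1a and Sec23a, coat proteins of the vesicles that leave the endoplasmic reticulum, at -0.41 and -0.42. The higher were Apobec1 and Soat2, which esterifies cholesterol for VLDL (0.77). The 14 tested of 19 other apolipoprotein genes had a median of -0.07. The only one under that p was Apol9a, at 139 ± 33.7 CPM in napabucasin and 94.4 ± 31.7 CPM in vehicle livers. Clu, the abundant apolipoprotein J, had a log2 fold change of -0.39 (edgeR adjusted p = 0.458).

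The plasma lipases and receptors on which apolipoproteins act had medians near that of all genes, which was 0.00. Of 16 lipase genes 11 lay above 0 (median 0.07), with Lpl, the lipase that C-II activates, at 176 ± 70.3 CPM in napabucasin and 98.4 ± 28.9 CPM in vehicle livers (log2 fold change 0.84, edgeR unadjusted p = 0.0128, adjusted p = 0.259), and Pnpla2, a lipase of cellular fat, at -0.49. Of 16 receptor genes 9 lay above 0 (median 0.05). Sdc1, a heparan sulphate proteoglycan that binds remnants, measured 116 ± 14.3 CPM in napabucasin and 195 ± 56.0 CPM in vehicle livers (log2 fold change -0.75, edgeR adjusted p = 0.227). The scavenger receptor Stab2 had 0.91 and Mylip, a ubiquitin ligase of lipoprotein receptors, 0.63 (edgeR adjusted p = 0.238 and 0.298). Stab2 is also 1 of the 10 sinusoidal endothelial markers, of which 10 were fitted above 0 (median 0.66). At an unadjusted p under 0.05, 4 of these 10 were higher, against 9.34% of all tested genes. The markers summed to 267 to 520 CPM in napabucasin and 140 to 344 CPM in vehicle livers. Their part in the Stab2 value was not tested.

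The 15 genes of HDL formation had a median of -0.01. At an unadjusted p under 0.05, 1 was lower and 2 were higher, against 5.83% and 9.34% of all tested genes. Lipg, endothelial lipase, had a log2 fold change of -1.48, with vehicle replicate 5 at 26.7 CPM against 2.74 to 9.41 CPM in the other vehicle libraries. The sterol exporters Abcg1 and Abcg5 had 0.63 and 0.87, while Abcg8, of the same list, had 0.03 (edgeR unadjusted p = 0.947). Abcg5 measured 96.7 to 470 CPM in napabucasin and 65.9 to 170 CPM in vehicle livers, so its groups overlapped. Abca1, which lipidates apolipoprotein A-I, had 0.25, Lcat -0.36 and the HDL receptor Scarb1 -0.22 (edgeR adjusted p = 0.473, 0.413 and 0.644).

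Of 27 tested transcription factors that act on apolipoprotein genes, 17 lay below 0 (median log2 fold change -0.24). At an unadjusted p under 0.05, 4 were lower and 3 higher, against 5.83% and 9.34% of all tested genes. Prox1, a hepatocyte homeobox factor, measured 57.2, 47.1, 58.8, 60.7 and 70.3 CPM in napabucasin replicates 1 to 5, against 79.0, 106, 84.1, 143 and 142 CPM in vehicle replicates 1 to 5. The groups did not overlap, as for 0.934% of tested genes in this direction, and the log2 fold change was -0.91 (edgeR unadjusted p = 0.000598, adjusted p = 0.166). Onecut1 had -1.17 at a low level, 1.67 ± 0.540 CPM in napabucasin and 3.76 ± 1.43 CPM in vehicle livers (edgeR adjusted p = 0.223). Nr0b2, a corepressor, had 0.92 (edgeR adjusted p = 0.235). Mlxipl, the carbohydrate-response factor, had 1.23 (edgeR adjusted p = 0.250). Its groups overlapped, with 208 to 844 CPM in napabucasin, the highest in replicate 1, and 136 to 361 CPM in vehicle livers. Hnf4a, which drives many apolipoprotein promoters, had -0.44 (edgeR adjusted p = 0.353), Ppara -0.68 (0.395) and Creb3l3, the CREBH factor that activates Apoa4 in mouse liver, -0.23 (0.690). Among 17 target genes of CREBH and PPAR alpha, 16 lay below 0 with a median of -0.92. At an unadjusted p under 0.05, 9 were lower, against 5.83% of all tested genes. Cpt1a (-0.92), Plin2 (-1.18), G0s2 (-1.13) and Vnn1 (-0.94) were among these 9.

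Acute phase proteins lay below 0 in 17 of 19 genes (median -0.36) and clock genes in 10 of 16 (median -0.23). Clock genes lay on both sides of 0. Dbp and Hlf, transcription factors that bind the D-box, had -2.95 and -1.06 (edgeR adjusted p = 0.157 and 0.185). Cry1 and Arntl, core clock components, had 1.27 and 1.11 (edgeR adjusted p = 0.207 and 0.233). Dbp measured 0.641 to 2.33 CPM in napabucasin livers. It was at 1.54 CPM in vehicle replicate 1 and at 7.47 to 25.8 CPM in the other vehicle libraries. Hlf, Cry1 and Arntl in vehicle replicate 1 also lay inside their napabucasin ranges. B cell and T cell markers lay above 0 in 8 of 8 and 9 of 9, with summed levels of 84.3 to 159 CPM and 19.8 to 45.7 CPM in napabucasin, against 41.3 to 63.8 CPM and 11.8 to 18.4 CPM in vehicle livers. Stellate cell and fibroblast markers lay above 0 in 10 of 10, summing to 559 to 1381 CPM in napabucasin and 439 to 615 CPM in vehicle livers. At an unadjusted p under 0.05 in edgeR, 8 of 8 B cell, 8 of 9 T cell and 6 of 10 stellate cell and fibroblast markers were higher. The share of all tested genes was 9.34%. The part of these cells in the lower fitted values of the apolipoprotein genes was not tested.

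**Figure D5:**
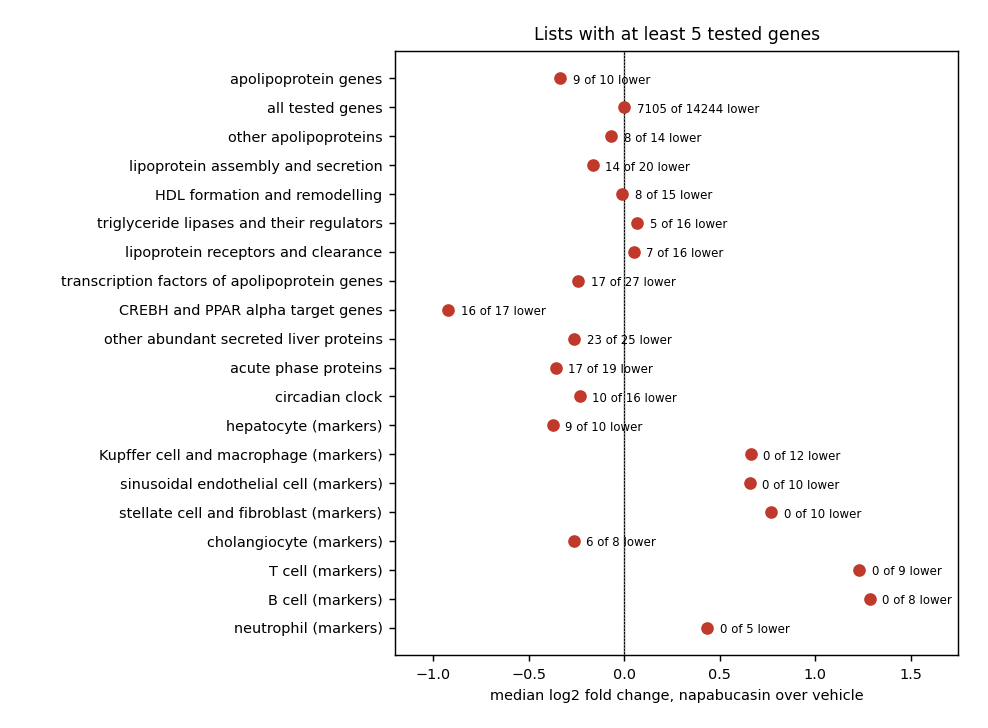
Points give the median log2 fold change of napabucasin over vehicle for the apolipoprotein genes, all tested genes and each list with at least 5 tested members, with the number of members fitted below 0 beside each. The apolipoprotein genes lie at -0.33, acute phase proteins at -0.36, hepatocyte markers at -0.37, cholangiocyte markers at -0.27 and other abundant secreted liver proteins at -0.26, and the CREBH and PPAR alpha targets lie lowest at -0.92.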

How the data were processed

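The authors deposited raw counts per gene and FPKM values, 1 column per library, plus group mean FPKM columns that were not used. CASAVA, HISAT2 2.0.5 and featureCounts 1.5.0-p3 are named, with GRCm38 (mm10), per the submitters' processing notes. Not given in the sources used here are the strand setting, the handling of reads that fit several genes, and which annotation was counted. Counts were filtered with filterByExpr, scaled by TMM and tested in R 4.3.3 with edgeR 4.0.16 (robust quasi-likelihood F test, treatment as the only term, Benjamini-Hochberg adjustment over 14244 genes, threshold 0.05), and the procedure was tested on simulated data. Standard errors were derived from the fitted change and its F statistic. CPM uses TMM library sizes. FPKM was used for levels between genes, and log2(FPKM + 1) and log2(FPKM + 0.1) in limma 3.58.1 as alternatives. The other alternatives were RLE or no scaling, DESeq2 1.42.0, limma-voom with quality weights, a test without robust moderation, other filters, a replicate block, no mitochondrial or rRNA genes, and each library left out.

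The labels call the libraries biological replicates without explaining whether a shared number pairs them. After subtracting each group's mean, libraries with the same number had correlations of 0.154, 0.227, 0.208, 0.270 and 0.278. Of the 10 libraries, 6 correlated best with the library of their own number in the other group. The pairing is thus a hint from the data alone. It enters only the replicate block alternative and the p-values printed for it. The other p-values in the report judge the group difference against library-to-library spread, with no pairing. The members, lists and tests were chosen with earlier results of these data known. Named genes are the 10 members, a fixed set of genes, and up to 4 genes with the smallest p per pathway list, and some of these are not reported here. Exonic overlap was computed from GENCODE M21, and promoters are RefSeq's (GRCm38.p6), where 8 of 10 members matched.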

Additional observations from a re-analysis of the deposited data

Results flagged for a closer look

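In 8 of 104 sets of 5 libraries, 1 library stood apart, meaning that its distance to its nearest neighbour made up more than 0.71 of the set's range. About 5.2 such sets would arise by chance. No apolipoprotein gene was among them.

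The mitochondrial share of counts was 19% in vehicle replicate 1, against 7.03% to 8.78% in the other vehicle libraries (ratio 0.854). In the same library Mlxipl was high at 361 CPM (nearest 177 CPM), Arntl at 28.5 CPM (nearest 11.7 CPM) and Mup20, a major urinary protein, at 247 CPM (nearest 117 CPM). Vehicle replicate 5 was high in Ppara at 56.2 CPM (nearest 22.3 CPM) and in Lipg at 26.7 CPM (nearest 9.41 CPM). Apobec1 was high in vehicle replicate 4 at 41.4 CPM (nearest 34.1 CPM), and G0s2 in napabucasin replicate 1 at 49.9 CPM (nearest 34.5 CPM).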

How the results depend on the processing

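Under each of the 22 alternatives 0 of the 10 apolipoprotein genes was called. The number of genes called over the whole table, 0 in edgeR's main test (2161 at an unadjusted p under 0.05), was 205 with DESeq2, 156 with limma-voom, 19 without a filter on low counts, 1 with library size as the only scaling, 1 on log2(FPKM + 0.1), and 0 to 18 with 1 library left out, the highest without vehicle replicate 1. Apoa1 and Apoc1 changed sign with limma-voom (0.026 and 0.13). With 1 library left out, Apoa1 ran from -0.29 to 0.011, Apoc1 from -0.34 to 0.066 and Apoc2 from -0.13 to 0.54. The other 7 members kept their sign under all 22 alternatives. With the replicate block 0 genes were called and no call on a member changed; Apoa4 was at -0.66 and Apom at -0.84 (edgeR adjusted p = 0.108 and 0.202). The smallest adjusted p of any member under any alternative was 0.0838, for Apoa4 and Apom with limma-voom. The cause of these differences was not tested. With 5 libraries a group, the 95% intervals of Apoa1, Apoa2 and Apoc1 reached down to -0.79, -0.94 and -0.88.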
